A study of Mus musculus with 6 samples.

Results

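Antioxidant and glutathione genes were followed in the hearts of Cav1 knockout mice. A list of 35 genes was drawn up: the glutathione S-transferases, the enzymes that make and recycle glutathione, glutathione peroxidases, superoxide dismutases, catalase, peroxiredoxins, the thioredoxin system, metallothioneins, and the regulators NRF2 and KEAP1. A gene counted as measured when at least 1 probe set carried its symbol and no other, which held for 32 of the 35, among 18193 genes measured in that way over the array. No probe set met that rule for Prdx1, Prdx5 and Prdx6, which were not analysed here. The 32 genes had 67 probe sets, 20 genes having several, and the brightest by its mean over the 6 hearts stands for each gene below unless another is named.

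The data are 6 Affymetrix expression arrays of heart tissue RNA, 3 from Cav1 knockout mice (Cav1KO) and 3 from wild-type mice (WT). All mice were male, 5 to 6 months old and fasted for 6 hours. Cav1 encodes caveolin-1, the coat protein of the plasma membrane pits called caveolae. The labels give neither the strain nor which stretch of Cav1 was removed, and do not say whether each sample is a separate animal, so a p-value below reflects how much these 6 samples varied, which may be technical. Each title ends in a number of its own, whose meaning is not stated, and each sample is called a heart below. The WT titles also hold a replicate number. The Cav1KO titles do not, so Cav1KO replicates are numbered here in the order in which they are listed.

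Reactive oxygen species are removed in steps. Superoxide dismutases turn superoxide into hydrogen peroxide, which catalase, glutathione peroxidases and peroxiredoxins break down to water. Glutathione and thioredoxin supply electrons to the glutathione peroxidases and peroxiredoxins. Glutathione S-transferases join glutathione to lipid peroxidation products and other reactive compounds. The transcription factor NRF2, held down by KEAP1 in unstressed cells, raises many of these genes when oxidants or electrophiles modify KEAP1. In heart muscle, which is rich in mitochondria, a separate set of mitochondrial enzymes carries out much of this work.

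Cav1 itself had intensities of 118, 101 and 101 in the Cav1KO hearts, against 3853, 3836 and 4216 in the WT hearts. Values here and below are quantile-normalised intensities of one probe set on a linear scale, and fold changes are differences of log2(intensity + 16), Cav1KO minus WT, which understate the change of dim genes. Summed deposited intensities ran from 12263600 to 12397300 in Cav1KO arrays and from 11736700 to 12329500 in WT arrays, WT replicate 1 being the lowest and standing apart from the other WT hearts on the second principal component (19.3% of the variance). A probe set was called at an adjusted p under 0.05 (limma, Benjamini-Hochberg over 22519 tested probe sets). All 32 genes passed the filter on low intensity at their brightest probe set, and 63 of their 67 probe sets did.

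Of the 32 genes, 2 fell in Cav1KO hearts, Gstk1 and Gstm1, 0 rose, and 30 did not pass. Over all 11486 genes tested at their brightest probe set, 1.05% were called lower and 2.97% higher (4.02% in either direction). Of the 63 tested probe sets of these genes 2 were called, both lower, and over all probe sets 0.813% were called lower and 2.36% higher (3.17% in either direction). At an unadjusted p under 0.05, 8 of the 32 were lower and 2 higher, against 1258 lower and 1273 higher of the 11486. In 8 of the 32 genes (25%) every Cav1KO heart lay below every WT heart, against 15.2% of all genes, and in 0 of the 32 did every Cav1KO heart lie above, against 13.4% of all genes. The median log2 fold change of the 32 was -0.047, and that of all genes tested was -0.014. The changes were small throughout, from -0.36 for Gstk1 to 0.35 for Mt2.

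**Figure D1:**
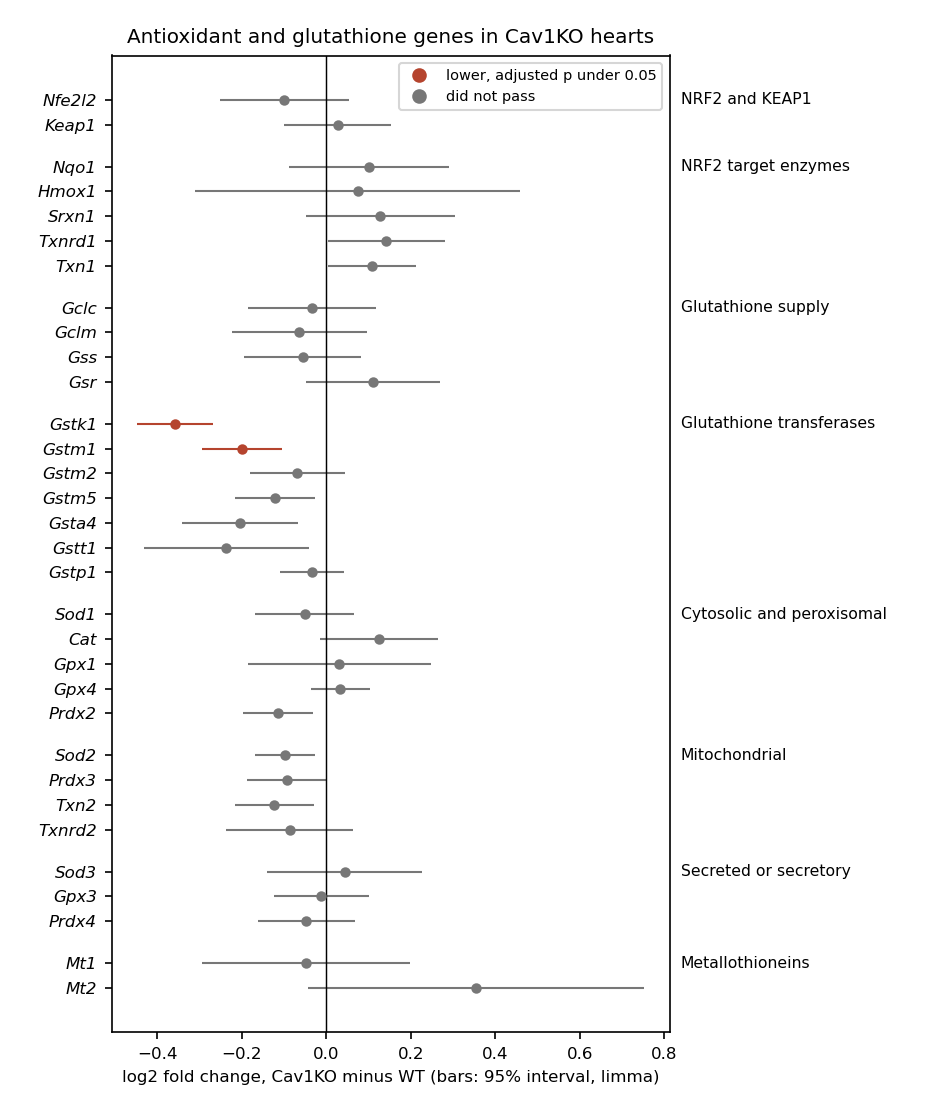
Log2 fold change of each of the 32 measured genes (x axis, Cav1KO minus WT) with its 95% interval from limma, grouped by role down the page. Red marks the 2 genes called lower, Gstk1 at -0.36 and Gstm1 at -0.20, and grey the 30 that did not pass.

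The precision of the 3 against 3 design can be read from the intervals. For 29 of the 30 genes that did not pass, the 95% interval lay within a 1.5-fold change either way. The exception was Mt2, and the intervals of all 30 lay within 2-fold. After Mt2, the intervals with the widest reach were those of Hmox1, Gstt1 and Gsta4.

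The glutathione S-transferases held both calls. Gstk1, the kappa-class transferase found in mitochondria and peroxisomes, had intensities of 1541, 1489 and 1467 in Cav1KO hearts and 1932, 1969.8 and 1876 in WT hearts. The groups were far apart compared with their spread, with means of 1499 ± 37.7 in Cav1KO and 1926 ± 47.2 in WT (SD, n = 3 each). Gstk1 fell by 22.0% (log2 fold change -0.36 with an SE of 0.040, limma adjusted p = 0.00286), and it passed under all 16 alternative settings, with log2 fold changes between -0.38 and -0.30. A single probe set measures Gstk1, so no other probe set checks it. Gstk1 lies on chromosome 6, as Cav1 does. In the RefSeq gene order 174 protein-coding genes stand between them. It was the sole measured member on that chromosome, and whether sequence carried along with the deleted allele reaches it was not tested.

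Gstm1, a mu-class cytosolic transferase, had intensities of 2406, 2337 and 2518 in Cav1KO hearts and 2892, 2708 and 2744 in WT hearts. The groups did not overlap, the highest Cav1KO heart, replicate 3, lying below the lowest WT heart, replicate 2. Gstm1 fell by 12.9% (log2 fold change -0.20, SE 0.042, limma adjusted p = 0.0415), a call that held in 5 of 16 alternative settings. With the intensities as deposited the adjusted p was 0.0672, and without WT replicate 1 it was 0.101. Its brightest probe set is of a type that the array's naming marks as able to match related sequences, and the mu-class genes are close copies of each other. The other 3 probe sets of Gstm1 had log2 fold changes of -0.17, -0.24 and -0.18 and did not pass (limma adjusted p = 0.0597, 0.126 and 0.249), and in each of the 3 every Cav1KO heart lay below every WT heart.

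The other 5 transferases did not pass, and their values lay on the same side. Gsta4, which conjugates the lipid peroxidation product 4-hydroxynonenal, had 1093, 1062 and 966 in Cav1KO hearts and 1238, 1122 and 1242 in WT hearts (log2 fold change -0.20, limma adjusted p = 0.113). Gstt1, of the theta class, had 437, 383 and 501 in Cav1KO hearts and 511, 512 and 533 in WT hearts (log2 fold change -0.24, limma adjusted p = 0.18). In both genes the gap between the groups was smaller than the range within the Cav1KO hearts. Gstm5 had 1112, 1162 and 1128 in Cav1KO hearts and 1267, 1199 and 1239 in WT hearts (log2 fold change -0.12, limma adjusted p = 0.164). Gstm2 and Gstp1, with log2 fold changes of -0.068 and -0.034, had overlapping groups. All 7 transferases had a negative log2 fold change, under every one of the 16 alternatives too. Of all genes tested, 6222 of 11486 had a negative one. Alternatives that change only the filter or the variance model leave log2 fold changes as they are, so their signs were fixed in advance. In 5 of the 7 every Cav1KO heart lay below every WT heart, against 15.2% of all genes tested.

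**Figure D2:**
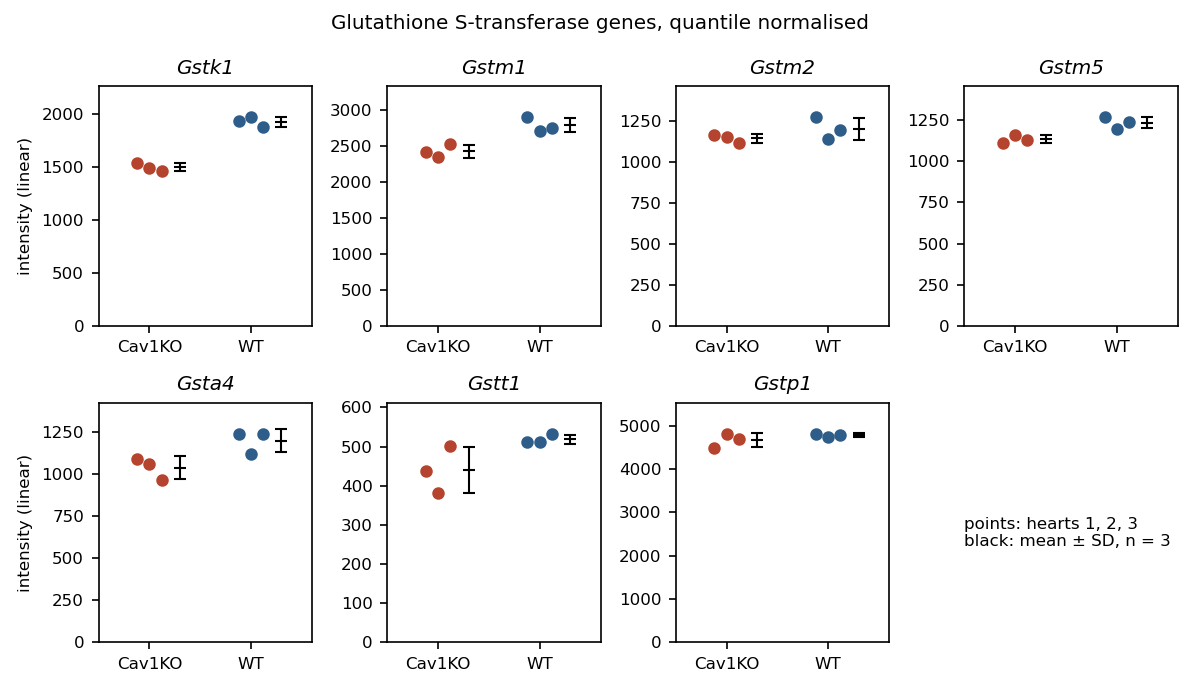
Quantile-normalised intensity (y axis, linear, starting at 0) of the 7 glutathione S-transferase genes in each Cav1KO heart (red) and each WT heart (blue), with mean and SD in black (n = 3). Gstk1 shows the widest gap between the groups, 1467 to 1541 in Cav1KO against 1876 to 1969.8 in WT, and the points of Gstm2 and Gstp1 overlap.

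The mu-class genes lie side by side on chromosome 3 in the order Gstm5, Gstm7, Gstm6, Gstm3, Gstm2, Gstm1, Gstm4. Gstm6 was too dim to be tested, and the other 6 had log2 fold changes from -0.29 to -0.058. Gstm7, which is not on the list of 35, fell (364, 342 and 356 in Cav1KO hearts, against 439, 444 and 423 in WT hearts; log2 fold change -0.29, SE 0.052, limma adjusted p = 0.0237), so that 2 of the 6 were called. The call of Gstm7 held in 7 of 15 alternative settings: it was lost as deposited (limma adjusted p = 0.138), with centring on the array median, and in each fit without 1 heart (limma adjusted p = 0.0526 to 0.109). Because these copies share sequence, a probe set of one can take up signal from another. Over all genes tested, 1.05% were called lower and 6222 of 11486 had a negative log2 fold change. The gene lists used here held 17 tested cytosolic, mitochondrial and microsomal transferases, the mu-class copies included. Of the 17, 16 had a negative log2 fold change and 4 fell: Gstk1, Gstm1, Gstm7 and Gstz1. With the intensities as deposited, of these 4 Gstk1 alone kept its call, Gstz1 having a limma adjusted p of 0.144. Mgst1, a microsomal transferase, was the exception, at 0.0062.

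The promoters of the 2 called genes are shown because those of other members hold the motif that NRF2 binds. RefSeq promoter windows of assembly GRCm38.p6, 250 bases before to 50 after the annotated start, were at hand for 29 of the 35 genes, and are written here 5′ to 3′ on the gene's strand. They were searched on both strands for the core of the antioxidant response element, TGACNNNGC, which can contain the AP-1 motif TGACTCA. It was found in 0 places in the window of Gstk1 and in 0 places in that of Gstm1, so both are in lower case throughout:
Gstk1, chr6:42245685-42245984, plus strand: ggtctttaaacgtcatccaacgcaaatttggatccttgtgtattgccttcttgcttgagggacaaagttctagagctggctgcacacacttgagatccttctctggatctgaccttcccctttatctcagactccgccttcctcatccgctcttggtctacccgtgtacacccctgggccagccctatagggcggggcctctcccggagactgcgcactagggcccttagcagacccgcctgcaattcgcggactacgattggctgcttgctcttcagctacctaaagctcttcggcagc
Gstm1, chr3:108017924-108018223, minus strand: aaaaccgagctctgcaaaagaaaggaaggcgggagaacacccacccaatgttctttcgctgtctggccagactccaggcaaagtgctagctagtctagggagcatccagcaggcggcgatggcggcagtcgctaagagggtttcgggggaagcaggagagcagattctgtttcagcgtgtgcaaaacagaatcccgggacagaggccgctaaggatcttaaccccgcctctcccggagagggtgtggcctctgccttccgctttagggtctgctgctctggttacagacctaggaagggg
No match says only that these letters are not in these windows. The core was in the windows of 8 of the 29 genes (27.6%), against 14% of all 27025 genes in the table. Capitals mark it in the 8 stretches that follow, each with up to 15 bases on either side:
Txnrd1, chr10:82859099-82859137, plus strand: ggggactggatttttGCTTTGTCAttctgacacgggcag
Srxn1, chr2:152105537-152105573, plus strand: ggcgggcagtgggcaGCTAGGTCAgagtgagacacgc
Gclm, chr3:122245408-122245446, plus strand: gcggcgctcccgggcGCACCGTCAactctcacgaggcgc
Prdx1, chr4:116685451-116685489, plus strand: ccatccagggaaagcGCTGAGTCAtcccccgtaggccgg
Gstm5, chr3:107895797-107895835, plus strand: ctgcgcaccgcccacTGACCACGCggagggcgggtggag
Sod1, chr16:90220691-90220729, plus strand: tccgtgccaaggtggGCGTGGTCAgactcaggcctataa
Mt2, chr8:94172524-94172562, plus strand: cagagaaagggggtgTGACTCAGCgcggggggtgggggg
Nfe2l2, chr2:75704880-75704913, minus strand: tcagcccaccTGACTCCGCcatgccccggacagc
In Mt2 and Prdx1 the core overlaps an AP-1 motif. The 7 of these genes that were measured had log2 fold changes from -0.12 for Gstm5 to 0.35 for Mt2, and 0 of them passed. A match is a description of the sequence, not a site shown to be in use.

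Among the measured members of the NRF2 system, Gstm1 alone was called. Nfe2l2, the gene of NRF2, had 779, 909.5 and 886 in Cav1KO hearts and 885, 979 and 893 in WT hearts (log2 fold change -0.099, limma adjusted p = 0.431). Keap1 had 277, 269 and 256 in Cav1KO hearts and 255, 266 and 264 in WT hearts. The groups overlapped in both genes. Of the 10 measured NRF2 target genes, 0 rose, 1 fell (Gstm1) and 9 did not pass. For comparison, 2.97% of all genes tested were called higher and 1.05% lower. The call of Gstm1 held in 5 of 16 alternative settings. The 6 targets with a positive log2 fold change were Txnrd1, Txn1, Srxn1, Gsr, Nqo1 and Hmox1. The 4 with a negative one were Gstm1, Gsta4, Gclc and Gclm.

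Among the 10 NRF2 targets, those of the thioredoxin branch had small positive log2 fold changes at their brightest probe sets, which did not pass. Txnrd1, the cytosolic thioredoxin reductase, had 594, 613 and 538 in Cav1KO hearts and 505, 522 and 548 in WT hearts (log2 fold change 0.14, SE 0.061, limma adjusted p = 0.24). Txn1, cytosolic thioredoxin, had 1917, 1837 and 1766 in Cav1KO hearts and 1661, 1678 and 1777 in WT hearts (log2 fold change 0.11, limma adjusted p = 0.231). In each, 1 Cav1KO heart, replicate 3, lay below the highest WT heart. The second, dimmer probe set of Txn1 stood at -0.20 (limma adjusted p = 0.333), and the mean of both at -0.047, so the direction for Txn1 turned with the probe set used. Srxn1, sulfiredoxin, which repairs overoxidised peroxiredoxins, had 262, 224 and 214 in Cav1KO hearts and 218, 209 and 207 in WT hearts (log2 fold change 0.13, limma adjusted p = 0.383). Its second brightest probe set stood at 0.23 and another at -0.17, neither past the threshold. Nqo1, the quinone reductase most often used as a readout of NRF2, had 502, 534 and 592 in Cav1KO hearts and 566, 484 and 467 in WT hearts (limma adjusted p = 0.516), with WT replicate 1 above 2 of the 3 Cav1KO hearts.

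Hmox1, haem oxygenase 1, varied widely among the Cav1KO hearts. It had 149, 249.97 and 143 in Cav1KO hearts and 166, 171 and 159.8 in WT hearts. Cav1KO replicate 2 was the highest heart and the other 2 Cav1KO hearts were the lowest. The log2 fold change of 0.074 had an SE of 0.17. It lay between -0.16 and 0.21 over the alternatives and was below 0 in 1 of them, without Cav1KO replicate 2.

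Genes for the supply of glutathione did not pass. Gclc and Gclm, the catalytic and modifier subunits of the rate-limiting ligase, had log2 fold changes of -0.034 and -0.064, Gss, glutathione synthetase, -0.056, and Gsr, glutathione reductase, 0.11. Gclc had 249, 244 and 230.4 in Cav1KO hearts and 265, 230.4 and 247 in WT hearts. Its less bright probe set had 269.9, 266 and 239 in Cav1KO hearts and 209.6, 225 and 213 in WT hearts, all Cav1KO hearts above all WT hearts (log2 fold change 0.24, limma adjusted p = 0.092). Thus the Gclc probe sets had log2 fold changes of opposite sign. So did those of Gclm and Gsr, whose dimmer probe sets stood at 0.086 and -0.00084, while that of Gss stood at -0.11. The median of these 4 genes was -0.045 at the brightest probe sets and 0.033 with each gene's probe sets averaged. In all, 9 of the 32 genes had tested probe sets of both signs.

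All 5 measured mitochondrial enzymes had a negative log2 fold change, and of them Gstk1 alone passed. Sod2, the manganese superoxide dismutase of the matrix, had 5931, 6047 and 5700.5 in Cav1KO hearts and 6239, 6343 and 6328 in WT hearts, with no overlap between the groups (log2 fold change -0.097, SE 0.031, limma adjusted p = 0.136). All 4 of its probe sets had a negative log2 fold change. Txn2, mitochondrial thioredoxin, had 1159.6, 1205 and 1179 in Cav1KO hearts and 1319, 1249.8 and 1296 in WT hearts, again with no overlap between the groups (log2 fold change -0.12, SE 0.041, limma adjusted p = 0.151). Prdx3, the mitochondrial peroxiredoxin, at -0.093, and Txnrd2, the mitochondrial thioredoxin reductase, at -0.087, had overlapping groups. The median of the 5 was -0.097. It stayed between -0.14 and -0.070 over the alternatives, in which 4 or all 5 were negative. Here too, alternatives of the filter or the variance model could not move it.

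Cytosolic and peroxisomal enzymes gave values on both sides of 0. Prdx2, a cytosolic peroxiredoxin abundant in red blood cells, had 4239, 4294 and 4294 in Cav1KO hearts and 4856, 4535 and 4501 in WT hearts, without overlap (log2 fold change -0.11, SE 0.036, limma adjusted p = 0.136). Its dimmer probe set had overlapping groups (log2 fold change -0.061, limma adjusted p = 0.64). Cat, the peroxisomal catalase, had 2587, 2466 and 2471 in Cav1KO hearts and 2233, 2549 and 2133 in WT hearts (log2 fold change 0.12, limma adjusted p = 0.295). In Cat the groups overlapped through WT replicate 2. The other Cat probe set had means of 2298 in Cav1KO and 2294 in WT (log2 fold change 0.0067, limma adjusted p = 0.964). Gpx1, the main cytosolic glutathione peroxidase, had 2471, 2639 and 2475 in Cav1KO hearts and 2063, 2647 and 2772 in WT hearts, WT replicate 1 being the lowest of the 6. Sod1, the copper and zinc superoxide dismutase, stood at -0.051 and Gpx4, which reduces lipid hydroperoxides in membranes, at 0.034.

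Secreted and secretory enzymes had log2 fold changes near 0 at their brightest probe sets. Gpx3, the plasma glutathione peroxidase, had 4026, 3867 and 4126 in Cav1KO hearts and 4123, 3749.7 and 4256 in WT hearts, a log2 fold change of -0.012 with a 95% interval from -0.12 to 0.10. Sod3, extracellular superoxide dismutase, had 561, 461 and 510.3 in Cav1KO hearts and 488, 459.9 and 536 in WT hearts (log2 fold change 0.044). Prdx4, the peroxiredoxin of the endoplasmic reticulum, stood at -0.047. The other probe set of Sod3 stood at -0.081, and the other tested ones of Prdx4 at -0.062 and 0.23. None of the 3 genes passed at any tested probe set.

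The metallothioneins, small metal-binding proteins that also respond to glucocorticoids and fasting, spread widely between hearts. Mt2 had 1096, 1466 and 819 in Cav1KO hearts and 966, 839.8 and 768 in WT hearts (log2 fold change 0.35, SE 0.18, 95% interval -0.043 to 0.75, limma adjusted p = 0.294). Its log2 fold change was 0.15 without Cav1KO replicate 2 and 0.56 without Cav1KO replicate 3. Mt1 had 4794, 5167 and 3784 in Cav1KO hearts and 4883, 5048 and 4199 in WT hearts (log2 fold change -0.048). Cav1KO replicate 2 was the highest heart for both, as it was for Hmox1, and replicate 3 was the lowest of its group in both.

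**Figure D3:**
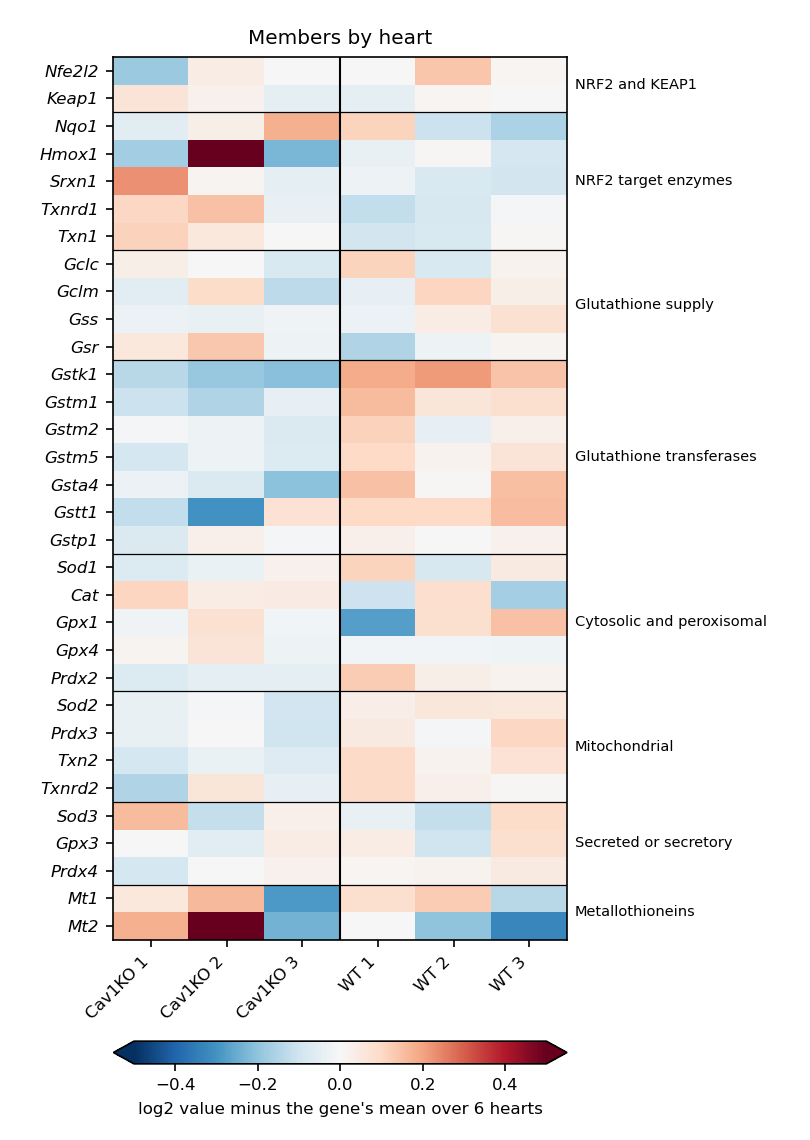
Log2 value of each of the 32 measured genes in each heart minus the mean of that gene over the 6 hearts (colour, blue lower and red higher, limited to 0.5 either way), Cav1KO hearts left of the line and WT hearts right. Gstk1 is blue in all 3 Cav1KO hearts and red in all 3 WT hearts, and the darkest cells, those of Hmox1 and Mt2, are in Cav1KO replicate 2.

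Other genes of the same pathways were counted from lists of 135 genes, of which 106 were tested. Of the 106, 4 rose, 3 fell and 99 did not pass, or 6.6% called, against 4.02% of all genes tested. Among 29 other glutathione genes Gstm7 and Gstz1 fell. Gstz1, the zeta-class transferase of tyrosine breakdown, had 148, 159 and 166 in Cav1KO hearts and 190.3, 202 and 231 in WT hearts (log2 fold change -0.36, SE 0.080, limma adjusted p = 0.0493). Among 28 other genes of thioredoxin and methionine repair, Msrb2, a mitochondrial methionine sulfoxide reductase, fell, with 717, 749.9 and 701 in Cav1KO hearts and 853, 834 and 895 in WT hearts (log2 fold change -0.25, limma adjusted p = 0.0336). In the same list Nxn, nucleoredoxin, rose, with 218, 184 and 192 in Cav1KO hearts and 154, 146 and 158 in WT hearts (log2 fold change 0.34, limma adjusted p = 0.0454).

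Among 29 other genes of NRF2 and NADPH supply, Ephx1, microsomal epoxide hydrolase, rose, with 955, 1101 and 1152 in Cav1KO hearts and 887, 829 and 826 in WT hearts (log2 fold change 0.33, limma adjusted p = 0.0425). Among 11 other genes of metal handling, Cp, the ferroxidase ceruloplasmin, rose, with 905, 910.4 and 828 in Cav1KO hearts and 699, 701 and 732 in WT hearts (log2 fold change 0.30, limma adjusted p = 0.018). Among 9 genes of oxidant-producing enzymes Ncf4, a subunit of the phagocyte NADPH oxidase, rose, with 62.4, 59.1 and 64.6 in Cav1KO hearts and 43.4, 44.3 and 44.1 in WT hearts (log2 fold change 0.38, limma adjusted p = 0.018). In WT hearts the values of Ncf4 lay under 44.6, the lowest mean intensity of a tested probe set. None of these 7 calls held in every alternative setting: Cp kept its call in 12 of 15 and Gstz1 in 4 of 15.

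**Figure D4:**
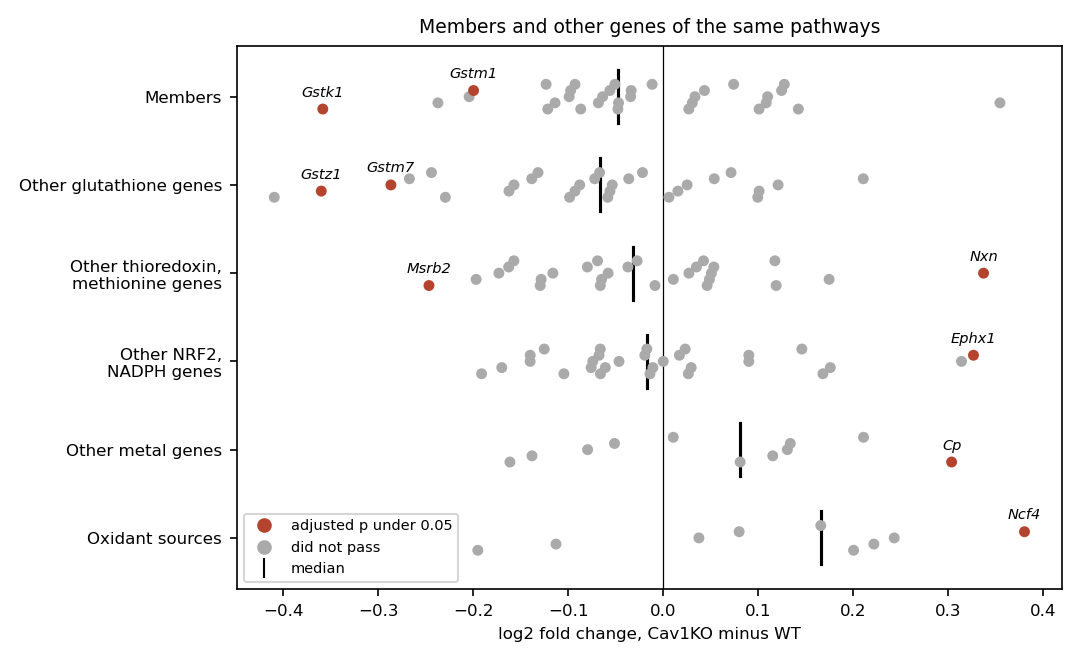
Log2 fold change (x axis, Cav1KO minus WT) of each tested gene of the list and of 5 further lists of the same pathways, with the median of each as a black bar. Red points are the genes called, 2 lower among the 32 members, and 4 higher and 3 lower among the other lists.

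Markers of some other cell types had higher values in Cav1KO hearts. For comparison with the counts below, 2.97% of all genes tested were called higher and 1.05% lower. Of 14 macrophage markers 7 rose and 0 fell, with summed intensities of 9623 to 10006.7 in Cav1KO hearts and 7441 to 8583 in WT hearts. Of 12 endothelial markers 5 rose and 0 fell, with sums of 7221 to 8220.4 in Cav1KO hearts and 6107 to 6432 in WT hearts. Of 10 fibroblast markers 3 rose, of 10 smooth muscle markers 1 rose, of 8 mesothelial markers 1 rose (Lrrn4) and of 9 atrial markers 0 were called. All 14 macrophage, 10 fibroblast and 8 mesothelial markers had a positive log2 fold change, as did 10 of the 12 endothelial markers. Of all genes tested, 5264 of 11486 had a positive one. All 9 atrial markers had a negative log2 fold change (median -0.12). Of the smooth muscle markers 5 had a positive and 5 a negative one. Of the 12 cardiomyocyte markers 0 were called, with sums of 185900.0 to 189135 in Cav1KO hearts and 186791 to 189387 in WT hearts. Fewer cells of a type and less RNA per cell cannot be told apart in whole tissue. The part of the macrophage and endothelial markers in the rise of Ncf4, Cp and Nxn was not tested.

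Adipocyte markers had lower values in Cav1KO hearts and spread widely within both groups. All 8 tested had a negative log2 fold change, with a median of -1.07, and 6 were lower at an unadjusted p under 0.05. After adjustment 1 fell (Slc36a2) and 0 rose, against 1.05% called lower and 2.97% higher of all genes tested. The summed intensity of the 10 measured markers was 1980, 1829 and 3203 in Cav1KO hearts and 2936, 4327 and 7129.5 in WT hearts, and Adipoq had 65.2, 53.5 and 262 in Cav1KO hearts against 225, 380.3 and 816 in WT hearts. Their part in the lower values of Gstk1, Gstm1 and the other transferases was not tested. Of the 5 measured erythroid markers 3 were tested and 0 passed, with sums of 1061 to 1397 in Cav1KO hearts and 1245 to 1658 in WT hearts, beside the values of Prdx2 above. Their part in the values of Prdx2 was not tested.

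**Figure D5:**
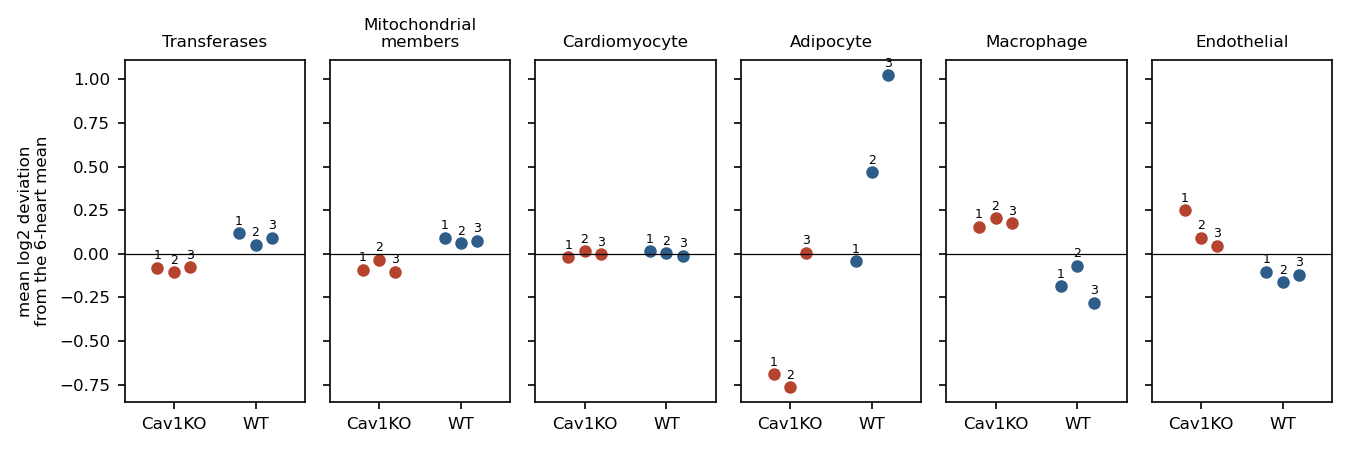
Mean log2 deviation from the 6-heart mean (y axis) of the 7 transferases, the 5 mitochondrial members and 4 marker lists in each heart, numbered by replicate, Cav1KO hearts (red) left of WT hearts (blue). The transferases lie between -0.10 and -0.076 in Cav1KO and between 0.052 and 0.12 in WT, the cardiomyocyte markers near 0 in all 6 hearts, and the adipocyte markers spread most.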

How the data were processed

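Mouse heart RNA was measured on 6 Affymetrix arrays, 1 per sample. Per the labels' protocols, Trizol extracts were cleaned up with a column kit and 2 ug of RNA was made into biotinylated cRNA by the Affymetrix One-Cycle method. The authors deposited 1 intensity per probe set and array on a linear scale, and the submitters' processing notes name GCOS 1.4. The background correction and scaling behind the deposited intensity are not given in the sources used here.

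Trimmed means (2% at each end) differed by 8.42% between arrays, so the intensities were quantile normalised. After removal of 64 Affymetrix controls, the upper 50% of the other 45037 by mean over all arrays was tested with limma 3.58.1 in R 4.3.3 (lmFit, eBayes with trend, no covariate) on log2(intensity + 16), adjusted after Benjamini and Hochberg. The number of arrays limits the precision. Gene names came from the platform annotation: 34945 probe sets had 1 symbol, 932 had several and 9160 were not named. The fit was tested on simulated data holding larger changes than those of the members. That run does not measure how well changes as small as theirs are found. The members and gene lists were chosen with earlier results of these data known. All members are named, and of the other pathway lists the genes past the threshold. Cell type lists are given by counts and sums. Alternatives were other normalisations, pseudocounts, filters and variance models, array weights, the mean over a gene's probe sets, and leaving out each heart.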

Additional observations from a re-analysis of the deposited data

How the results depend on the processing

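No paired analysis was made because the labels do not pair Cav1KO hearts with WT hearts. The count of members called higher was 0 in every setting tried. The count of members called lower was 2, and it was 1 with the intensities as deposited, with centring on the array median, with no filter on low values, with the upper 75% of probe sets, without the trend in eBayes and when a gene's probe sets were averaged, and 1 to 2 when 1 heart was left out. Gstk1 stayed called in all 16 alternatives, and the second call, where kept, was Gstm1. Without a heart, Gstm1 kept its call for Cav1KO replicate 3 only (limma adjusted p = 0.0399), and its adjusted p ranged from 0.0282 to 0.159 over all alternatives.

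The members' median of -0.047 was -0.0024 as deposited and 0.016 with median centring, where the median of all probe sets moved too, to 0.032 and 0.051 against -0.0096. Relative to all probe sets it was -0.038, -0.035 as deposited and -0.035 centred. With a gene's probe sets averaged the members' median was -0.026, and relative to all it was -0.017. The relative median was -0.017 without WT replicate 1, -0.020 without Cav1KO replicate 1 and -0.046 without Cav1KO replicate 2. Without one heart the median ran from -0.057 to -0.027. The 714 probe sets called over the array (74.4% higher) became 411 without the trend and 1171 with array weights, and 189 to 749 without one heart. The share higher was 90.9% as deposited, 93.5% centred, 66.4% with array weights and 64.9% with the upper 25%. The 7 other pathway genes called became 4 as deposited, 4 centred, 3 with no filter, 4 with the upper 75% and 3 without the trend, and 0 to 4 without one heart (0 without Cav1KO replicate 2). The causes of these shifts were not tested. The arrays number 3 a group, which limits what small changes can pass, and dim probe sets, such as those of Ncf4, lie near the filter.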
